A study of Mus musculus with 5 samples.

Results

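The AP-2 transcription factors are encoded in the mouse by Tfap2a, Tfap2b, Tfap2c, Tfap2d and Tfap2e, and these 5 genes were described here among 22350 protein-coding genes on chromosomes 1 to 19 and X. They were chosen as the members of the family by name. H3K27me3, the trimethyl mark that Polycomb Repressive Complex 2 (PRC2) places on lysine 27 of histone H3, had been mapped by ChIP-Seq in mouse embryonic fibroblasts (MEFs) from an embryo with a floxed Eed gene, which encodes a PRC2 subunit. Every line used here therefore carried the floxed allele. The K27R cells stably expressed H3.3 K27R from a lentivirus, the K27M cells H3.3 K27M and the EZHIP cells human EZHIP (hEZHIP). By the study's methods, the transgenes were driven by an EF1a promoter in a vector with puromycin resistance, so that they came on top of the endogenous histones. Peak lists of 3 of the 5 libraries of the series were analysed, with 1 library per group and no replicates. The libraries from the parental cells (Control) and from the Cre-treated Eed deletion line (EEDnull, a single clone) were not analysed here.

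H3.3 K27M and EZHIP are inhibitors of PRC2, whereas H3.3 K27R carries arginine in the place of the same lysine and is not known as an inhibitor, so that the K27R list served as the reference. The lists held positions only, without heights or read counts. A gene was therefore either inside a called peak or not, the depth behind a peak was unknown, and no difference between lists could be set against replicate spread. ChIP-Seq of bulk cells also cannot tell a mark on every copy of a locus from a mark on some of them.

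AP-2 factors bind GC-rich DNA as dimers and act in early ectoderm and its derivatives. Tfap2a is needed for neural crest, face and skin, and Tfap2b for kidney and for neural crest derived tissue. Tfap2c acts in trophoblast and primordial germ cells, Tfap2d in the dorsal midbrain and retina, and Tfap2e in neurons of the olfactory and vomeronasal systems. Genes of this kind are typical PRC2 targets outside the tissues that use them. CpG islands, stretches rich in unmethylated CpG dinucleotides, are known sites of PRC2 recruitment in mammals.

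In the mm9 annotation the family lay at 4 places. Tfap2a was at chr13:40811044-40829192 on the minus strand (18.1 kb). Tfap2c was at chr2:172375093-172384122 on the plus strand and was the shortest member (9.03 kb), while Tfap2e was at chr4:126393250-126413484 on the minus strand (20.2 kb). The pair Tfap2d and Tfap2b shared chromosome 1 and the plus strand, with Tfap2d at chr1:19093103-19156427 (63.3 kb), Tfap2b at chr1:19198995-19228815 (29.8 kb) and 42.6 kb between them.

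The sequence before the start site was examined for Tfap2a, Tfap2b, Tfap2d and Tfap2e. In the 300 bp upstream of the gene's 5′ end, Tfap2e had 15 CpG dinucleotides, Tfap2a 14, Tfap2b 11 and Tfap2d 6, beside a median of 9 over all protein-coding genes. The upstream stretches of Tfap2a, which matched the AP-2 consensus, and of Tfap2d, which had the fewest CpG among these, are shown, each read in the direction of transcription from the mm9 reference with every CG in capitals.
Tfap2a, chr13:40829193-40829492, minus strand: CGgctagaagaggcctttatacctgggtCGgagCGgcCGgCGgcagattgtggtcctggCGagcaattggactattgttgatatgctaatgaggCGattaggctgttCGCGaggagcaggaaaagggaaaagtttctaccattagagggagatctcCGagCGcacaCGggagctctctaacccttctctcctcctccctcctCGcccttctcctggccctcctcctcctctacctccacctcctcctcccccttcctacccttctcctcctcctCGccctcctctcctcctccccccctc
Tfap2d, chr1:19092803-19093102, plus strand: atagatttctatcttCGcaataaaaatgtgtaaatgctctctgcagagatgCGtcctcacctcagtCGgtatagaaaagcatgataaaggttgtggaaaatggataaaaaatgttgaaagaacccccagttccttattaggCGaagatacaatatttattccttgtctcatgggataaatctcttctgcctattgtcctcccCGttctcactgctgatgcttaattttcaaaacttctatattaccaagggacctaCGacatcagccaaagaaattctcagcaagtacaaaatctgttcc
The motif searched was GCCNNNGGC, the palindromic AP-2 consensus, which reads the same on both strands. It matched once in the Tfap2a stretch and not at all in those of Tfap2b, Tfap2d and Tfap2e, while 16.4% of the 300 bp stretches of all protein-coding genes held it. The longest Tfap2b model begins next to a repeat of CG. Transcripts that start further into the gene are annotated for Tfap2a (3405 bp), Tfap2b (3140 bp), Tfap2c (up to 2523 bp) and Tfap2d (4159 bp), so that the 5′ end of the gene is 1 of several annotated starts in these members.

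The first comparison asked whether the start site (the 5′ end of the gene) of each AP-2 gene lay inside an H3K27me3 peak. All 5 start sites lay in K27R peaks, where 30.1% of protein-coding genes had theirs. All 5 also lay in K27M peaks, against 9.02% of protein-coding genes. In the EZHIP list 4 of 5 did, against 7.73%, and the exception was Tfap2d. Tfap2a, Tfap2b, Tfap2c and Tfap2e were thus in all 3 lists, as were 6.6% of genes, and Tfap2d fell with the 2.39% that were in K27R and K27M peaks and in no EZHIP peak. No member was among the 1.11% of genes in K27R and EZHIP peaks alone, the 20% in K27R peaks alone or the 69.8% in no peak. The 15 annotated transcripts of the family gave the same picture, since the starts of all 15 lay in K27R and K27M peaks and those of all but the 2 Tfap2d transcripts in EZHIP peaks.

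Read against the genes that were marked in the K27R cells, 29.9% of such genes were in a K27M peak and 25.6% in an EZHIP peak. Each member also had a CpG island within 1 kb of its start site, as did 55% of all protein-coding genes. Among genes with both a K27R peak over the start site and an island that near, 51.9% were in a K27M peak and 44% in an EZHIP peak. Of the genes in K27R and K27M peaks together, 73.4% were in an EZHIP peak too, a share set here beside the 4 of 5 of the family. With 5 genes these counts are a description of the family, and nothing particular to it was tested.

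**Figure D1:**
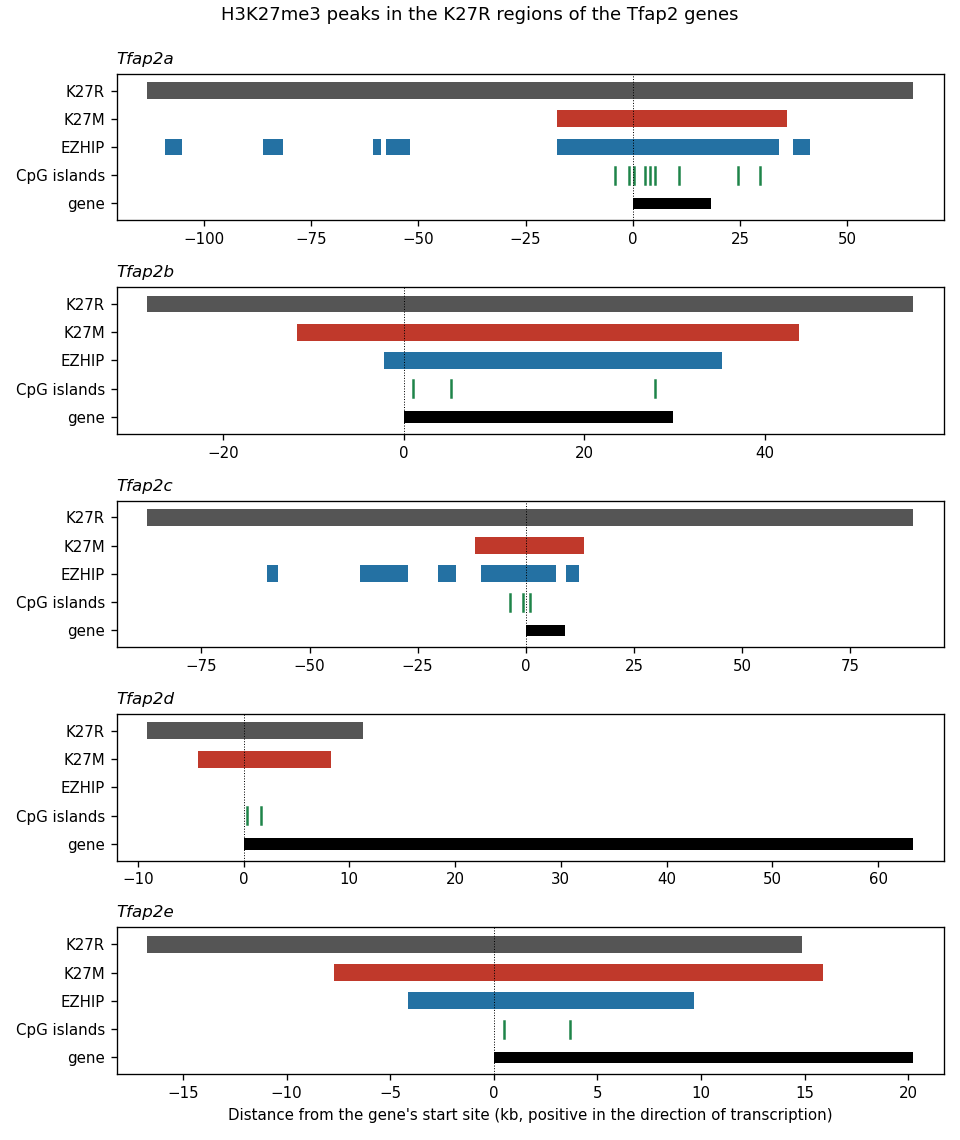
Peaks of the K27R (grey), K27M (red) and EZHIP (blue) lists around each AP-2 gene, as distance in kb from the start site, positive in the direction of transcription. Green ticks are the centres of CpG islands in the K27R region and black bars are gene bodies. Peaks of the K27M and EZHIP lists cover the start sites inside the K27R regions, with no EZHIP peak at Tfap2d and EZHIP peaks away from the gene at Tfap2a and Tfap2c.

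Tfap2a stood in a K27R peak of 178.6 kb at chr13:40763801-40942400. The K27M peak over it measured 53.6 kb (chr13:40793201-40846800) and the EZHIP peak 51.8 kb (chr13:40795001-40846800). Both narrower peaks held the whole gene with its 8 exons and ended at the same base 17.6 kb upstream of the start site. On the other side they differed by 1.8 kb, the K27M peak reaching 36.0 kb and the EZHIP peak 34.2 kb past the start site.

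Tfap2b lay in a K27R peak of 84.8 kb at chr1:19170601-19255400. The gene was also covered whole by a K27M peak of 55.6 kb (chr1:19187201-19242800) and an EZHIP peak of 37.4 kb (chr1:19196801-19234200). Here the lists differed on both sides. The K27M peak began 11.8 kb and the EZHIP peak 2.19 kb before the start site, and they reached 43.8 kb and 35.2 kb past it.

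Tfap2c had the second K27R peak of this size, 177 kb at chr2:172287601-172464600. The K27M peak over it was 25.2 kb (chr2:172363401-172388600) and covered the gene whole. The EZHIP peak was 17.2 kb (chr2:172364801-172382000) and stopped inside the gene, so that 76.5% of the gene and 8 of its 9 exons were covered. A further EZHIP peak of 3 kb began beyond the 3′ end of the gene at chr2:172384401-172387400. The K27M list had 1 continuous peak over the stretch that the EZHIP list split. With peaks up to 10000 bp apart joined, the EZHIP peak became 50.6 kb wide and covered the whole gene, so that both the width and the cover of Tfap2c rest on how peaks were joined.

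Tfap2e was one of the members with a narrow K27R peak, 31.6 kb at chr4:126398601-126430200. The K27M peak of 23.6 kb (chr4:126397601-126421200) reached 1 kb further into the 3′ part of the gene than the K27R peak, as one of the 3.40% of K27M peaks that were not wholly inside K27R peaks. Its cover of the gene was 78.5% in K27M cells and 73.6% in K27R cells. The EZHIP peak of 13.8 kb (chr4:126403801-126417600) covered 47.9%, and it reached 3 of the 7 exons where the K27M peak reached 5 and the K27R peak 4. In every list the peak lay over the start site and the 5′ exons, and the 3′ end of the gene lay outside called peaks.

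Tfap2d differed from the other members in each list. Its K27R peak was the narrowest of the family, 20.4 kb at chr1:19084001-19104400, and covered 17.8% of this long gene. The K27M peak of 12.6 kb (chr1:19088801-19101400) covered 13.1%. Both held the first 4 of its 9 exons, and the remainder of the gene lay outside called peaks. The nearest EZHIP peak was 103.7 kb from the start site and was the peak over Tfap2b. Among the 535 genes in K27R and K27M peaks and no EZHIP peak, the median distance to an EZHIP peak was 83.7 kb, and 52.3% were nearer to one than Tfap2d was. Of 308 genes with a start site in K27R and K27M peaks and a K27M peak of 10 to 15 kb, 88% were also in an EZHIP peak. That width class was chosen after the value of Tfap2d had been seen.

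The neighbours Tfap2d and Tfap2b were not joined by a peak in any list. The distance between the peaks over their start sites was 66.2 kb in the K27R list and 85.8 kb in the K27M list. Over the same chromosome segment the EZHIP list held the Tfap2b peak alone.

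Over the family together, K27R peaks covered 83.2 kb of 140.6 kb of gene body (59.2%), K27M peaks 81.2 kb (57.8%) and EZHIP peaks 64.6 kb (45.9%). The K27R and K27M totals differed by 2 kb, the balance of 3 kb less in Tfap2d and 1 kb more in Tfap2e. The genes with less EZHIP than K27M cover were Tfap2c, Tfap2d and Tfap2e. Whole-gene cover was found for 3 of 5 members in K27R peaks (20.1% of all protein-coding genes), 3 of 5 in K27M peaks (2.78%) and 2 of 5 in EZHIP peaks (1.82%). Among genes with a start site in the same list, 30.8% were whole in K27M peaks and 23.6% in EZHIP peaks.

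**Figure D2:**
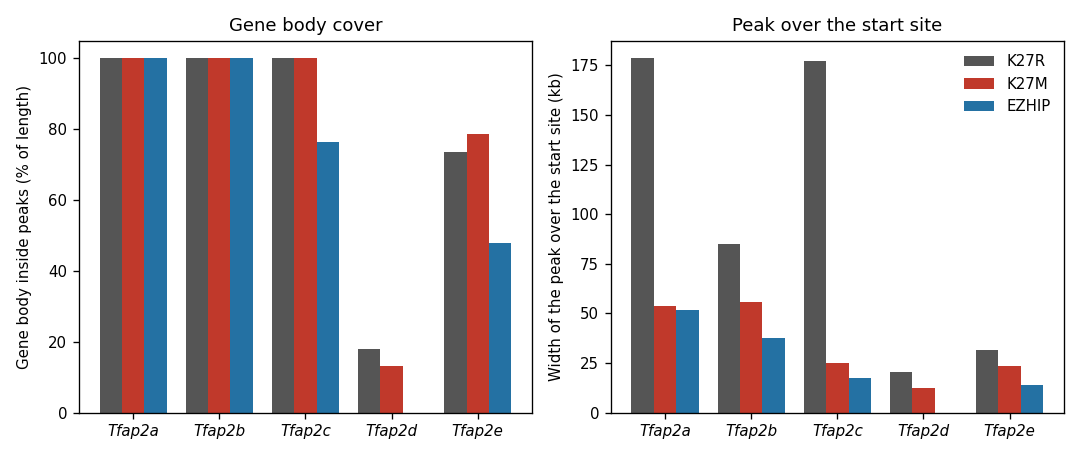
Left, percent of each AP-2 gene body inside peaks of the K27R (grey), K27M (red) and EZHIP (blue) lists. Right, width in kb of the peak over the start site, with 1 library per bar and no error bars. Tfap2a and Tfap2b are covered whole in all 3 lists, Tfap2d has no EZHIP bar, and the K27R bars of Tfap2a and Tfap2c reach 178.6 and 177 kb while no other bar passes 84.8 kb.

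The widths were then set beside those of all genes with a start site in the same list. The median width over the members was 84.8 kb in K27R cells, 25.2 kb in K27M cells and 27.3 kb in EZHIP cells, the last over the 4 members with a peak (44 kb with peaks up to 10000 bp apart joined). The medians over all genes were 96.8 kb, 11.8 kb and 8.4 kb. The members were thus on both sides of the K27R median and at or above the other medians. In the K27R list the share of genes with a narrower peak ranged from 13.01% for Tfap2d to 67.7% for Tfap2a. In the K27M list it ranged from 51.9% for Tfap2d to 89.7% for Tfap2b, and in the EZHIP list from 70.9% for Tfap2e to 96.4% for Tfap2a.

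The order of the members changed between lists. Tfap2a and Tfap2c had K27R peaks of nearly equal width, yet the K27M peak was 3.33-fold narrower than the K27R peak at Tfap2a and 7.02-fold narrower at Tfap2c. For the EZHIP peak the ratios were 3.45 and 10.3. At Tfap2b, Tfap2d and Tfap2e the K27R peak was 1.53, 1.62 and 1.34 times as wide as the K27M peak. The K27M peak was wider than the EZHIP peak at each of the 4 members that had both, by 1.03-fold at Tfap2a, 1.47-fold at Tfap2c, 1.49-fold at Tfap2b and 1.71-fold at Tfap2e. Of all 1476 genes with both, 78.7% had the wider peak in K27M cells and the median ratio was 1.42. The order at Tfap2a and Tfap2c rests on how peaks were joined. With peaks up to 10000 bp apart joined, the EZHIP peak was the wider at Tfap2a (59 kb against 53.6 kb) and at Tfap2c (50.6 kb against 25.2 kb). At Tfap2b and Tfap2e the K27M and EZHIP widths did not change.

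**Figure D3:**
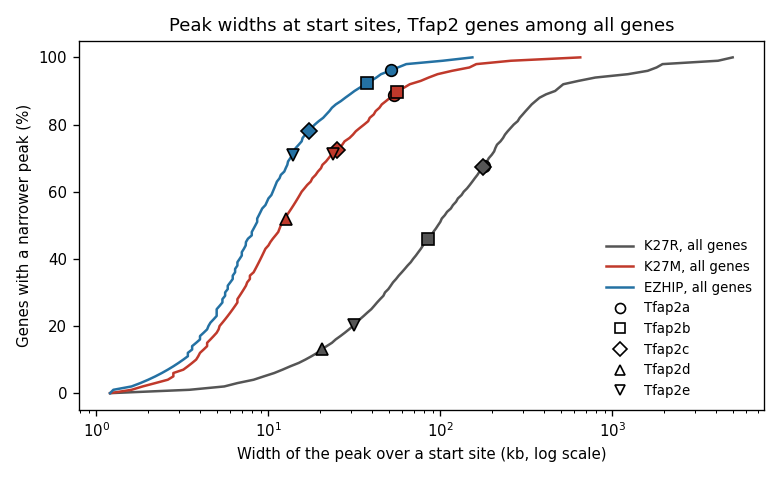
Percent of genes with a narrower peak against the width in kb (log scale) of the peak over the start site, for all protein-coding genes with a start site in the K27R (grey), K27M (red) or EZHIP (blue) list. Symbols mark the AP-2 genes on each curve. The Tfap2a circle lies under the Tfap2c diamond on the K27R curve at 67.7% and 67.5%, and the EZHIP symbols lie between 70.9% and 96.4%.

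The K27R regions over the members were next examined beyond the genes. The 5 regions held 492.4 kb, of which K27M peaks covered 169.6 kb (34.4%) and EZHIP peaks 161 kb (32.7%). The 2 lists shared 123.2 kb, which was 76.5% of the EZHIP length. Over all K27R regions of the genome, 27.2 Mb lay in peaks of both lists and 9.23 Mb in EZHIP peaks only. The order of the totals turned with peaks up to 10000 bp apart joined, to 34.2% for K27M and 36.4% for EZHIP. At single genes the lists differed more. K27M peaks covered more of the region than EZHIP peaks at Tfap2b (65.6% and 44.1%), at Tfap2d (61.8% and 0%) and at Tfap2e (71.5% and 43.7%). At Tfap2a and Tfap2c the EZHIP peaks covered more, with 40.2% against 30.01% and 21.5% against 14.2%. EZHIP peaks covered more in 29.8% of the 1478 regions with a start site and peaks of both lists. The median shares, each over the regions with a peak of that list, were 15.2% for K27M and 11.7% for EZHIP. Of the regions with a start site and a K27M peak, 17.1% held no EZHIP peak, as at Tfap2d.

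The surplus at Tfap2a and Tfap2c came from EZHIP peaks away from the gene. Each of the 5 regions held a single K27M peak, whereas the EZHIP list had 13 peaks there, 6 of them around Tfap2a and 5 around Tfap2c. Apart from the peaks over the start sites there were 9, with 20 kb in all around Tfap2a and 20.8 kb around Tfap2c, and widths from 1.8 kb to 11 kb. Of these 9 peaks 8 lay outside K27M peaks, and none held a CpG island. The single K27M peak of each region lay over the start site, which favours such a count. No share over all EZHIP peaks away from start sites stands beside it. The farthest upstream of Tfap2a spanned chr13:40934201-40938200, 105 to 109 kb from the start site. The widest was the 11 kb peak at chr2:172336801-172347800, upstream of Tfap2c. The shortest distance between neighbouring peaks anywhere in a list was 0 bp for K27R, 5200 bp for K27M and 1200 bp for EZHIP. The study's methods give a maximum gap setting of 10000 for its H3K27me3 calls. Why every list holds shorter gaps is not explained in the sources used here. How far joining set these counts was not tested beyond merging. With peaks up to 10000 bp apart joined, the EZHIP list still held 4 peaks in the Tfap2a region and 2 in the Tfap2c region.

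CpG islands were found from the mm9 sequence. The 5 K27R regions held 19 islands, 9 of them around Tfap2a, 3 around Tfap2b, 3 around Tfap2c, 2 around Tfap2d and 2 around Tfap2e, and 13 lay in the gene bodies. All 19 were in K27M peaks. In EZHIP peaks there were 17, and the 2 without were both at Tfap2d. No share over all islands in K27R regions stands beside these counts, so they only describe the 5 loci. The start sites of Tfap2c and Tfap2e lay inside islands of 2452 bp and 1120 bp, while those of the others lay next to one. For comparison, the shorter Tfap2d island and an upstream island of Tfap2c of nearly the same length and the same number of CG (19 each) are shown, the first in K27R and K27M peaks only and the second in all 3 lists.
Tfap2d island, chr1:19093354-19093574, plus strand: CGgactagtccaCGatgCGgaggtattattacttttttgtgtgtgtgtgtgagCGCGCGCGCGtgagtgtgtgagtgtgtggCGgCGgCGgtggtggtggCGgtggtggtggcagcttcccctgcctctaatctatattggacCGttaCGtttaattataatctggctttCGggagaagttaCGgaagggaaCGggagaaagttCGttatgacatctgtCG
Tfap2c island, chr2:172374257-172374474, plus strand: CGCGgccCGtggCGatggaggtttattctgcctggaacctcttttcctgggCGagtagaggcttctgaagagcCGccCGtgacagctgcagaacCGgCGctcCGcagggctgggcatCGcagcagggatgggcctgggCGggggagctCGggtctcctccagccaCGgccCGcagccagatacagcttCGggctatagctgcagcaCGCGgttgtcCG
The Tfap2d island was 52.9% G+C with a run of alternating C and G in its first part, and the Tfap2c island was 67.0% G+C. Islands of 53.9% G+C at Tfap2e and 55.3% G+C at Tfap2a were in EZHIP peaks too. Each shared its peak with a longer island of higher G+C, of 1120 bp at Tfap2e and of 1681 bp at Tfap2a. The Tfap2c island shown shared its EZHIP peak with the island of 2452 bp. Tfap2d also had a longer island of 557 bp and 60.9% G+C at chr1:19094448-19095004. The islands of Tfap2d had the smallest total length of the family. In the 2.2 kb around the start site Tfap2d had 47 CpG dinucleotides, Tfap2b 49, Tfap2a 107, Tfap2c 137 and Tfap2e 146. Whether G+C, CpG or island content bears on the missing EZHIP peak at Tfap2d was not tested.

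CpG density inside the regions was highest where the 2 lists overlapped. It was 25.0 CpG per kb in the stretch shared by K27M and EZHIP at Tfap2a, 15.2 at Tfap2b, 29.5 at Tfap2c and 24.3 at Tfap2e. In the stretches outside both lists it was 8.75, 5.65, 12.8 and 21.0 CpG per kb in the same order. The EZHIP-only stretches had 7.65 CpG per kb at Tfap2a and 13.03 at Tfap2c, beside 8.75 and 12.8 outside both lists. The K27M-only stretches had 6.11 CpG per kb at Tfap2a, 5.77 at Tfap2b, 14 at Tfap2c and 13.9 at Tfap2e. At Tfap2d the K27M stretch had 15.5 CpG per kb and the remainder 11.4. Over all K27R regions of the genome the densities were 19.1 in both lists, 11.9 in K27M only, 12.2 in EZHIP only and 8.87 in neither. The shared stretches hold the start sites, and the values are a description without a test.

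**Figure D4:**
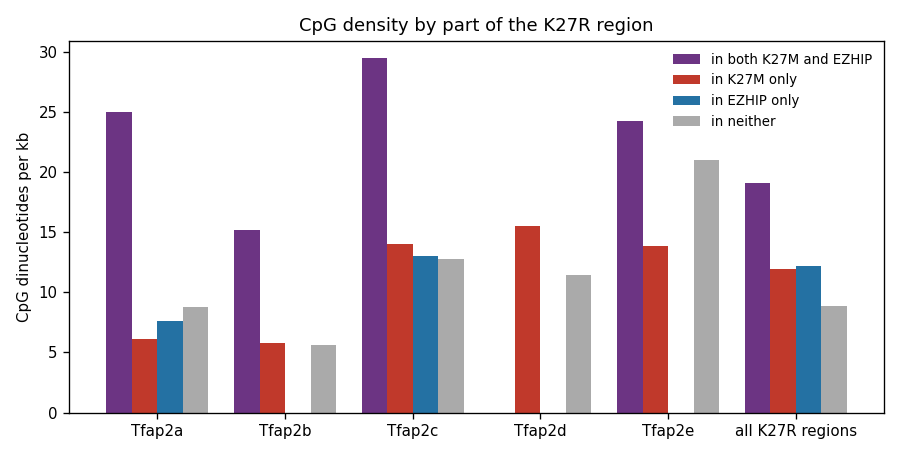
CpG dinucleotides per kb in 4 parts of the K27R region of each AP-2 gene and of all K27R regions together: in both K27M and EZHIP peaks (purple), in K27M only (red), in EZHIP only (blue) and in neither (grey). A missing bar means that the region has no such part. The purple bars are the tallest wherever they exist, from 15.2 at Tfap2b to 29.5 at Tfap2c.

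Nearby genes were looked at to see how far the marking extended. In the Tfap2a region the start of Gm9979, a gene model 7.73 kb from Tfap2a, lay in all 3 lists, within the same peaks as Tfap2a itself. The lincRNA Gm16989, which overlaps the 5′ part of Tfap2a on the other strand, also started in all 3 lists. Gcnt2, which encodes a glycan branching enzyme on the far side of Tfap2a, started in no peak, its start site 10.9 kb from the nearest K27R peak, although 18.7% of its body was inside K27R peaks. In the Tfap2c region 1700029J11Rik started in a K27R peak alone. Bmp7, a secreted signalling factor 309.4 kb beyond Tfap2c, started in peaks of all 3 lists, none of them the Tfap2c peaks.

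The neighbours of Tfap2e started in no peak. Psmb2, which encodes a proteasome subunit, started 1.47 kb from a K27R peak other than that of Tfap2e. Ncdn, a neuronal gene, started 0.482 kb outside the Tfap2e peak in K27R cells, which held 95.0% of the Ncdn body. Near the pair on chromosome 1, Defb41 and Pkhd1 started in no peak, and their gene bodies lay 837.9 kb and 819.0 kb from the nearer member. No K27R peak touched the Defb41 body, whereas 38.5% of the Pkhd1 body was in K27R peaks. The overlapping transcript Gm15825, on the other strand at the 5′ end of Tfap2d, started in K27R and K27M peaks and in no EZHIP peak, as Tfap2d did.

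Genes that act with, beside or below AP-2 were then counted from lists, to be read against the shares of all protein-coding genes (30.1%, 9.02% and 7.73%). Of 10 cofactors and modifiers of AP-2, 5 started in K27R peaks, 3 in K27M peaks and 4 in EZHIP peaks. Cited1, an AP-2 coactivator, and Kctd15, a repressor of AP-2 activity, were among the 3 in all lists, Kctd15 with widths of 126.8, 11.6 and 13 kb in K27R, K27M and EZHIP cells. Cited1 lies on chromosome X and was in a K27R peak of 5000 kb, the greatest width over a start site in that list. The oxidoreductase gene Wwox, whose product binds AP-2, was in a K27R peak of 41.2 kb only. Cited4, a relative of Cited1, was in K27R and EZHIP peaks and no K27M peak, the reverse of Tfap2d, and was named after its values had been seen. Cited2 and the acetyltransferase genes Ep300 and Crebbp were in no peak. In all, 5 of the 10 started in no peak, as did 69.8% of all protein-coding genes and none of the AP-2 genes.

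Of 16 neural plate border and neural crest regulators, 12 started in K27R peaks, the same 12 in K27M peaks and 10 in EZHIP peaks. The homeobox genes Pax7 and Msx1, the zinc finger gene Zic1 and the homeobox gene Msx2 were in all 3, Pax7 with widths of 616, 70.6 and 53.2 kb. Snai2, Ets1, Twist1 and Id3 were in no peak. The 2 genes in K27R and K27M peaks and no EZHIP peak, the pattern of Tfap2d, were Pax3 and Sox9, named after their values had been seen.

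Of 10 trophoblast and germ cell regulators 9 started in K27R peaks, 5 in K27M peaks and 4 in EZHIP peaks. The 4 in all lists were Cdx2, Gata2, Gata3 and Prdm14, Cdx2 with widths of 293.4, 170.2 and 65.4 kb. Elf5, Esrrb, Prdm1 and Nanos3 were in K27R peaks only, and Tead4 was in no peak. Eomes had the pattern of Tfap2d and was likewise named after its value had been seen.

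Of 14 genes known to respond to AP-2, 7 started in K27R peaks, 2 in K27M peaks and 1 in EZHIP peaks. The receptor tyrosine kinase gene Ret was in all 3 lists, with widths of 109.2, 12.4 and 7 kb. Erbb2, Cdh1, Krt5 and Krt14 were in K27R peaks only, and Erbb3, Esr1, Mcam and Cdkn1a in no peak. RNA was not measured in these files, so that marking of a responding gene says nothing here of AP-2 activity.

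**Figure D5:**
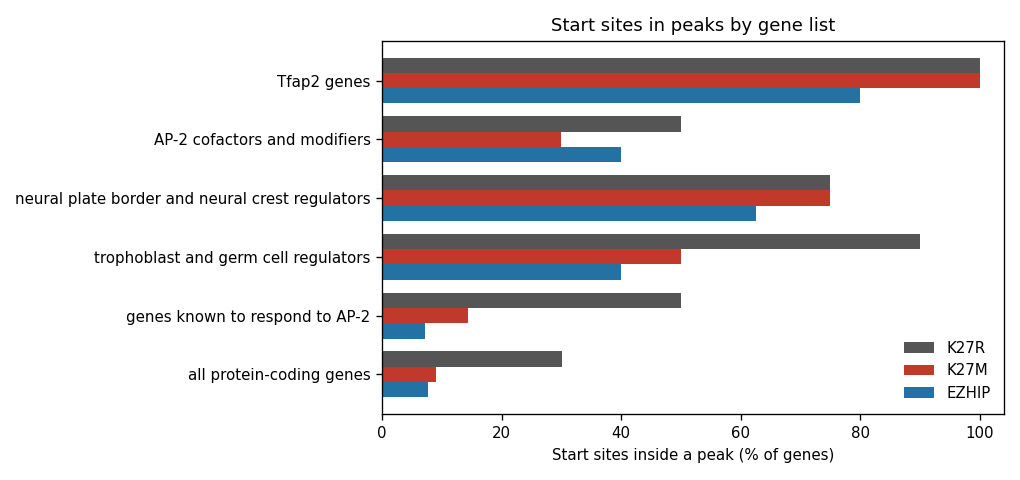
Percent of genes with a start site inside a peak of the K27R (grey), K27M (red) or EZHIP (blue) list, for the 5 AP-2 genes, 4 lists around AP-2 and all protein-coding genes. The AP-2 genes stand at 100%, 100% and 80%, and all genes at 30.1%, 9.02% and 7.73%.

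The labelled cell type was set against marker lists. Of all protein-coding genes 69.8% started in no peak, and 30.1%, 9.02% and 7.73% in K27R, K27M and EZHIP peaks. Of 14 fibroblast markers 13 started in no peak, among them Col1a1, Col1a2, Col3a1 and Col6a1, and Pdgfra was in all 3 lists. Of 8 epithelial markers 5 started in K27R peaks, 3 in K27M peaks and 2 in EZHIP peaks, Cdh1 and Krt8 being in the AP-2 response list as well. Of 7 neural markers with a gene in the annotation 5, 4 and 4 did, and of 8 blood and endothelial markers 3, 1 and 1.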

How the data were processed

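H3K27me3 ChIP-Seq libraries of MEFs were prepared from crosslinked chromatin digested with MNase. Per the study's methods, the authors aligned reads with bowtie1 (Bowtie 1.0.0 in the submitters' processing notes) to mm9 and a spike-in genome and called broad peaks with MOSAiCS-HMM. Which background entered the calls, and whether the spike-in scaling did, is not given in the sources used here. The deposited lists gave the chromosome, start and end of each peak on a grid of 200 bp, with no score, so that depth is unknown. The K27R list held 12845 peaks (582.1 Mb), the K27M list 3736 (51.0 Mb) and the EZHIP list 4992 (36.5 Mb). Positions are printed counting from 1.

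On all 20 chromosomes the last peak ended inside its mm9 length. The NCBIM37 (mm9) sequence and GENCODE vM1 genes were used, in which all 5 members carry older Tcfap2 symbols that were matched through RefSeq synonyms. A start site counted as in a peak when its base was, and gene cover ran from gene start to gene end. CpG islands (26796) were found by scoring 17 per CG and -1 otherwise, with a length above 200 bp, G+C of 50% or more and CpG above 0.6 of the expected number, repeats unmasked. With 1 library per group no test was made, and shares over 22350 protein-coding genes stand beside the members. The members and the gene lists were chosen with earlier results of these data known. All members were named, with the nearest gene on each side, genes starting in the same K27R region, and up to 4 genes per list and class (all 3 lists, K27R only, no list) in list order. Alternatives were minimum peak widths, merged peaks, other distances and island lengths, any transcript start, and autosomal genes. The interval and island routines were tested on simulated data. Python 3.11.15 with numpy 2.4.6 was used. Some sequences and genes of the lists are not reported here.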

Additional observations from a re-analysis of the deposited data

How the results depend on the processing

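The counts of start sites in peaks (5 of 5 in K27R, 5 of 5 in K27M and 4 of 5 in EZHIP) were unchanged with peaks of at least 2000 bp or 5000 bp, with peaks up to 10000 bp apart merged, within 5000 bp of a peak and with any transcript start. This outcome was fixed by the values themselves. The narrowest peak over a member's start site was 12.6 kb, and merging, a tolerance or further starts can only add genes. Only the EZHIP count could rise, and Tfap2d lay 103.7 kb from the nearest EZHIP peak. Of 216 values recomputed under the alternatives, 200 stayed as reported and the 16 others moved. Staying meant identical widths and distances, counts within 1.5 times, or shares inside an exact binomial interval. That interval took 200 bp bins, or genes for the background shares, as independent trials, so that it measures no spread between libraries. Merging raised the median width over the start sites to 44 kb in EZHIP cells and 88.8 kb in K27R cells, and the EZHIP cover of the K27R regions to 36.4%, which exceeds that of K27M. With peaks of at least 5000 bp the EZHIP cover fell to 27.8%. With 5000 bp added on each side of the genes, body cover was 64.6% in K27R peaks and 63.0% in K27M peaks. Of islands of at least 500 bp there were 5 in the K27R regions, 5 in K27M peaks and 4 in EZHIP peaks. Within 5000 bp of a K27R peak lay 8 of the 10 cofactor genes. On the autosomes alone 28.2% of genes started in K27R peaks. In each case the construction of the alternative changes what is counted. No paired analysis was possible because the labels carry no replicate numbers and each group has 1 library, which also leaves nothing to omit in turn. Depth is unknown, so that an absent peak, as for EZHIP at Tfap2d, cannot be told from a peak under the calling threshold.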
